A study of Mus musculus with 10 samples.

Results

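The genes described here encode the peptide adrenomedullin (*Adm*), its receptor *Calcrl* and the 3 receptor activity-modifying proteins *Ramp1*, *Ramp2* and *Ramp3*. They are 5 of the 28522 genes that were found in at least 3 cells, out of 46517 Ensembl genes in the count tables. They were chosen by name because they form 1 ligand and receptor system, with earlier results of these data known. Each was followed in lymphatic endothelial cells (LECs), in valve LECs and in blood endothelial cells (BECs), in *Pik3ca* mutant against control mice.

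Adrenomedullin is a secreted vasodilator peptide of the calcitonin family. Its receptor is a complex: the G protein-coupled receptor encoded by *Calcrl* binds adrenomedullin when it is paired with RAMP2 or RAMP3, and binds calcitonin gene-related peptide when it is paired with RAMP1. The receptor signals mainly through Gs and cAMP, it is known for tightening endothelial junctions, and loss of *Adm*, *Calcrl* or *Ramp2* in mouse embryos causes edema with poorly grown lymphatic vessels.

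The study compared dermal endothelial cells with and without an activating H1047R change in the PI3-kinase gene *Pik3ca*, a frequent cause of vascular malformations. Mutant mice (n = 5) were Pik3caH1047R;Cdh5-CreERT2, Cre+, treated with 4-OHT on the ears at 3 wk of age, and all mice were 5 wk old. The *Cdh5* promoter drives the inducible Cre in all endothelium, so LECs and BECs can both recombine, and the cells were taken by Podoplanin and CD31 staining and not by recombination. Control 1 was an untreated C57BL/6J mouse, and control 2 was Pik3caH1047R;Cdh5-CreERT2 without Cre (Cre-) and given 4-OHT. The 2 controls thus differ from each other in transgene and treatment, control 3 of the labels was not analysed here, and all p-values measure the spread between these mice.

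Single cells had been sequenced full length (Smart-Seq2) in 384-well plates, and 3248 of 3456 wells on 9 plates were kept, with 99969650–151812175 reads per plate. The plates are labelled as sorted LECs, while the methods state that both LECs and BECs were sorted, and the cells fell into both classes in similar numbers. A cell was a LEC when *Prox1*, *Flt4* and *Mmrn1* summed to at least 300 CPM (counts per 1000000 reads) and exceeded *Flt1*, *Emcn* and *Podxl*, and a BEC when the latter sum was larger. This gave 1283 mutant and 358 control LECs, 1215 mutant and 327 control BECs, and 65 cells of neither kind. Valve LECs (189 mutant, 42 control) were LECs with at least 300 CPM of the valve marker *Cldn11*. Each class is a range on a measured scale: 1036 of 1283 mutant and 288 of 358 control LECs had marker sums at least 4-fold apart, and 82 of the 231 valve LECs lay within 2-fold above the *Cldn11* limit and 67 other LECs within 2-fold below it. Markers outside the rule matched the names, as *Lyve1*, *Pdpn*, *Reln* and *Ccl21a* summed to 3210–4822 CPM in LECs and 71.0–464 CPM in BECs.

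Several measurements moved with genotype and bear on what follows. Mutants 1–4 came from plates with numbers beginning with 3, whereas mutant 5 and both controls came from plates with numbers beginning with 8 or 9. Genotype fits on the latter plates alone, and those with plate series as a block, thus compare only mutant 5 with the controls. Fibroblast markers summed to 15.6–100 CPM in mutant against 184–327 CPM in control LECs, and to 12.6–51.5 against 516–721 CPM in BECs. Mural cell markers summed to 32.3–58.3 against 86.0–110 CPM in LECs and 33.8–302 against 336–605 CPM in BECs, and no gene of these lists was at 0 in either class. Cycling cells were 18.9% of mutant and 1.68% of control LECs. The part of these differences in the results below was tested only where a value without such cells or within a plate series is given.

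Per length of summed exons, *Ramp2* was the most abundant of the 5 genes in every class. In mutant LECs, *Ramp2* reached 381 ± 34.7 CPM per kilobase (SD, n = 5), followed by *Adm* at 68.3 ± 30.9 and *Calcrl* at 59.1 ± 10.4, which did not differ from each other beyond their spread. *Ramp3* and *Ramp1* were far lower. In control LECs the same order held, with means of 339, 76.5 and 55.6 CPM per kilobase for *Ramp2*, *Adm* and *Calcrl* (n = 2).

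*Adm*, the ligand gene (GRCm38, chromosome 7, 110627661–110629820, plus strand), was a LEC gene more than a BEC gene and was not called different between genotypes in either class. In LECs it was at 154, 170, 89.1, 49.7 and 90.1 CPM in mutants 1–5, and at 125 and 122 CPM in controls 1 and 2. Mutants 1 and 2 were above both controls and mutants 3–5 below them, so the genotypes overlapped. The log2 fold change of summed reads was -0.12 ± 0.41 (SE, adjusted p = 0.900, edgeR quasi-likelihood test with Benjamini-Hochberg adjustment over all genes, as for all fold changes below).

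In BECs, *Adm* was at 56.8, 17.9, 20.7, 9.24 and 60.8 CPM in mutants 1–5 and at 38.3 and 39.4 CPM in the controls. Mutants 1 and 5 were the highest and the other mutants the lowest, with a log2 fold change of -0.18 ± 0.66 (adjusted p = 0.912). This order rests on few cells. The 3 richest cells of a mouse held 40.6–80.1% of its *Adm* reads in the mutants and 52.3% and 42.5% in the controls. The 2 plates of mutant 5 were at 27.9 and 98.1 CPM, below and above both controls. Of the *Adm* reads of control BECs, 53.4% lay in the 125 of 327 cells (38.2%) that also held at least 300 CPM of fibroblast, mural, keratinocyte, immune or Schwann cell markers. Without such cells the log2 fold change was 0.19, on the other side of 0.

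The difference of *Adm* between cell classes was larger than its spread between mice. Within mutant mice the LEC level exceeded the BEC level in every mouse, by 1.94 ± 0.38 on the log2 scale (adjusted p = 0.0124), and this was called under 13 of 13 alternative settings. Within the 2 control mice it was higher by 1.71 ± 0.22 (adjusted p = 0.0362), which became 2.36 with an adjusted p of 0.102 without the cells holding other cell types' markers.

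**Figure D1:**
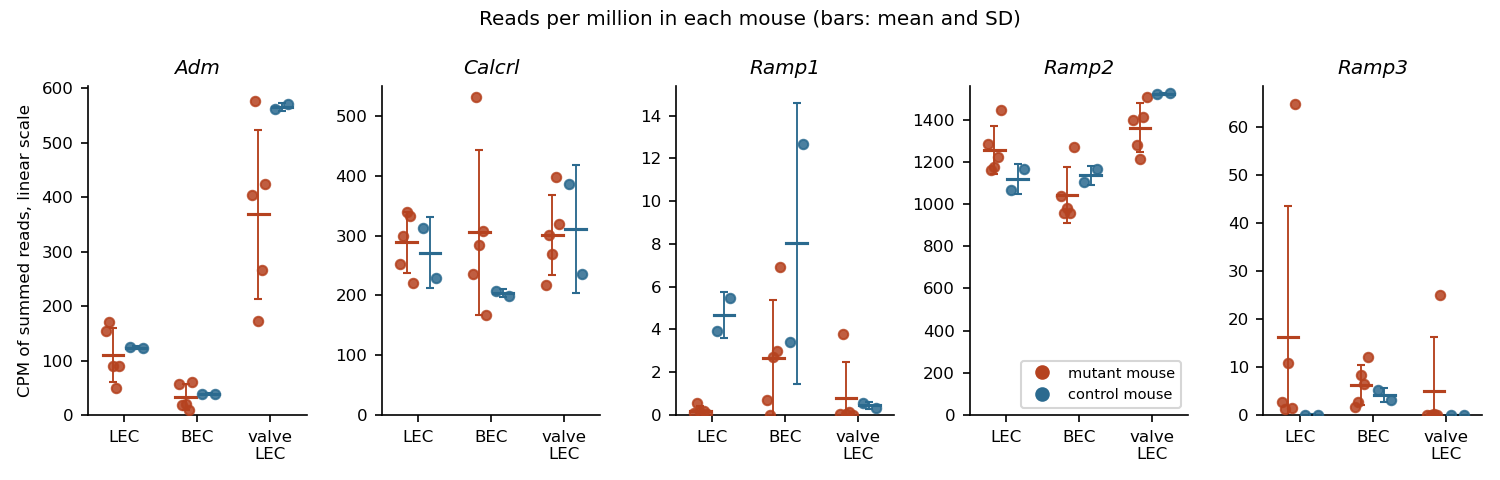
Level of the 5 genes in CPM of summed reads (linear axes that differ between genes) for each mouse, in LECs, BECs and valve LECs. Points are the 5 mutant and 2 control mice and bars are the group mean and SD, cut at 0. *Adm* in LECs runs from 49.7 to 170 CPM in mutants around the controls at 125 and 122 CPM, and *Ramp3* in LECs of mutant 5 stands at 64.6 CPM.

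*Calcrl*, the receptor gene (chromosome 2, 84330626–84425411, minus strand), was expressed at like levels in both endothelial classes. In LECs it was at 253, 300, 339, 332 and 221 CPM in mutants 1–5 and at 313 and 230 CPM in the controls. The mutants ranged from just below the lower control to just above the higher one, with a log2 difference of 0.13 ± 0.22 (adjusted p = 0.792).

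In BECs, *Calcrl* was at 236, 532, 284, 308 and 167 CPM in mutants 1–5 and at 208 and 199 CPM in the controls. Mutants 1–4 were above both controls and mutant 5 below them, with a log2 fold change of 0.65 ± 0.41 (adjusted p = 0.413). The mutant that was low is the one whose plates share their number series with the controls. On those plates alone the log2 change was -0.25. With plate series as a block it was also -0.25 (adjusted p = 0.932), a fit that likewise compares only mutant 5 with the controls.

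The LEC and BEC levels of *Calcrl* differed by -0.01 ± 0.18 within mutant mice (log2, adjusted p = 0.984) and by 0.43 ± 0.18 within control mice (adjusted p = 0.321). Neither passed the test, and the range over mutants left out in turn was -0.11 to 0.20.

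*Ramp2*, whose protein turns the receptor into an adrenomedullin receptor (chromosome 11, 101246028–101259546, plus strand), was the evenest of the 5 genes. Its summed exons share 1103 of 3301 bases (33.4%) with *Vps25* on the same strand, so reads there cannot be assigned to either gene with certainty. In LECs it was at 1284, 1162, 1178, 1222 and 1445 CPM in mutants 1–5 and at 1069 and 1169 CPM in the controls. All mutants were above control 1, and mutant 2 was below control 2, with a log2 difference of 0.22 ± 0.11 (adjusted p = 0.298). The 2 plates of mutant 3 were at 1343 and 988 CPM, above and below both controls.

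In BECs, *Ramp2* was at 1040, 958, 984, 958 and 1273 CPM in mutants 1–5 and at 1106 and 1169 CPM in the controls. Mutants 1–4 were below both controls and mutant 5 above them, with a log2 fold change of -0.07 ± 0.13 (adjusted p = 0.820). The 2 plates of mutant 3 lay on both sides of the controls, at 1176 and 725 CPM, so plates of 1 mouse differed more than the genotypes. Those of mutant 5 were at 1257 and 1292 CPM. Within mutant mice, *Ramp2* was higher in LECs than in BECs by 0.25 ± 0.05 on the log2 scale (adjusted p = 0.0124), whereas in control mice the difference was 0.01 ± 0.11 (adjusted p = 0.988). The difference between these contrasts did not pass its own test, at 0.26 ± 0.09 (adjusted p = 0.310). The mutant call was lost without mutant 3 (adjusted p = 0.0585), with every cell thinned to 50000 reads (adjusted p = 0.0773) and without the mouse as a block (adjusted p = 0.0776).

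*Ramp1*, whose protein makes the calcitonin gene-related peptide receptor (chromosome 1, 91179822–91225196, plus strand), was low in LECs and was the only member called between genotypes. In LECs it was at 0.0775, 0.557, 0.158, 0.204 and 0.0463 CPM in mutants 1–5 and at 3.92 and 5.46 CPM in the controls. The genotypes did not overlap, and *Ramp1* fell by 4.44 ± 0.93 on the log2 scale (adjusted p = 0.0469). Of all genes tested in LECs, 2.76% were called in either direction.

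The *Ramp1* reads of LECs came from few cells. Control 1 had 219 reads, of which 132 and 65 lay in single cells, and control 2 had 334 reads, of which 317 lay in 1 cell. Beside lymphatic markers, the cell with 317 reads held 6028 CPM of mural and 1108 CPM of fibroblast markers, and the cells with 132 and 65 reads held 9250 and 6560 CPM of fibroblast markers. Of the 553 reads of control LECs, 522 (94.4%) lay in the 63 of 358 cells with markers of other cell types.

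Without cells of that kind *Ramp1* differed by -2.29 in LECs (adjusted p = 0.205). The call was kept in 3 of 17 alternative settings, which were DESeq2 (adjusted p = 0.000382), DESeq2 size factors in edgeR (adjusted p = 0.0480) and the fit without mutant 2 (adjusted p = 0.0396). On the control plate series it was -6.57 (adjusted p = 0.529) and with plate series as a block -6.56 (adjusted p = 0.210).

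In BECs, *Ramp1* was at 0.682, 0.0231, 2.71, 3.00 and 6.91 CPM in mutants 1–5 and at 3.40 and 12.7 CPM in the controls. The genotypes overlapped, with a log2 fold change of -1.54 ± 1.31 (adjusted p = 0.552). None of the 5 genes was called in BECs, where 1.86% of genes tested were. The cells with markers of other types held 97.9% of the mutant and 76.3% of the control *Ramp1* reads of BECs. Without them the log2 fold change was -5.45 (adjusted p = 0.0419). Of the 705 reads of control BECs, 538 were thereby left out, and most of those kept lay in a single cell of control 1. That cell held 147 of the 161 reads of its mouse. It was kept with 243 CPM of keratinocyte markers, and the call without it was not tested.

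*Ramp3*, whose protein makes the other adrenomedullin receptor (chromosome 11, 6658521–6677475, plus strand), had 7 reads in all control LECs and 12563 in those of 1 mutant. Its summed exons share 101 of 1380 bases (7.32%) with the antisense gene *Gm11978*, and the strand setting of the counting is not given in the sources used here. In LECs it was at 2.73, 1.35, 10.8, 1.55 and 64.6 CPM in mutants 1–5 and at 0.107 and 0.0163 CPM in the controls. These levels rest on 176, 75, 1293, 91 and 12563 reads in the mutants and on 6 reads and 1 read in the controls.

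The genotypes did not overlap, but the mutants spread widely and the edgeR test did not call *Ramp3* in LECs, with a log2 difference of 8.06 ± 2.45 (adjusted p = 0.116). DESeq2 called it (adjusted p = 0.000143). The difference stayed above 0 in all 17 alternative settings. It was 6.06 without mutant 5 (adjusted p = 0.0863), 7.65 without cells holding other types' markers (adjusted p = 0.191), 10.07 on the control plate series (adjusted p = 0.0795) and 10.06 with plate series as a block (adjusted p = 0.0586).

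In mutant 5, *Ramp3* was spread over many LECs. A read was found in 204 of 367 cells and at least 10 reads in 56, and both of its plates were high, at 73.4 and 56.6 CPM. The LECs of mutant 5 with most *Ramp3* reads included *Lyve1*-rich and *Ptx3*-rich cells, and the richest cell held 954 reads.

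In BECs, *Ramp3* was at 1.62, 2.66, 8.33, 6.54 and 12.1 CPM in mutants 1–5 and at 5.19 and 3.06 CPM in the controls. The genotypes overlapped, with a log2 difference of 0.64 ± 0.81 (adjusted p = 0.705). In control BECs, 368 of the 377 *Ramp3* reads (97.6%) lay in cells with markers of other types, against 39.1% of 2669 reads in mutant BECs. A single cell held 202 of the 246 reads of control 1 and 128 of the 131 reads of control 2. The richest cell held 19.9–90.6% in the mutants. The overlap therefore holds for BECs with such cells included. None of 17 alternative settings, the fit without such cells among them, called *Ramp3* in BECs. The difference of the LEC effect from the BEC effect was 6.31 ± 1.39 for *Ramp3* (log2, adjusted p = 0.145). No member was called in that test across classes, in which 0.182% of genes were.

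**Figure D2:**
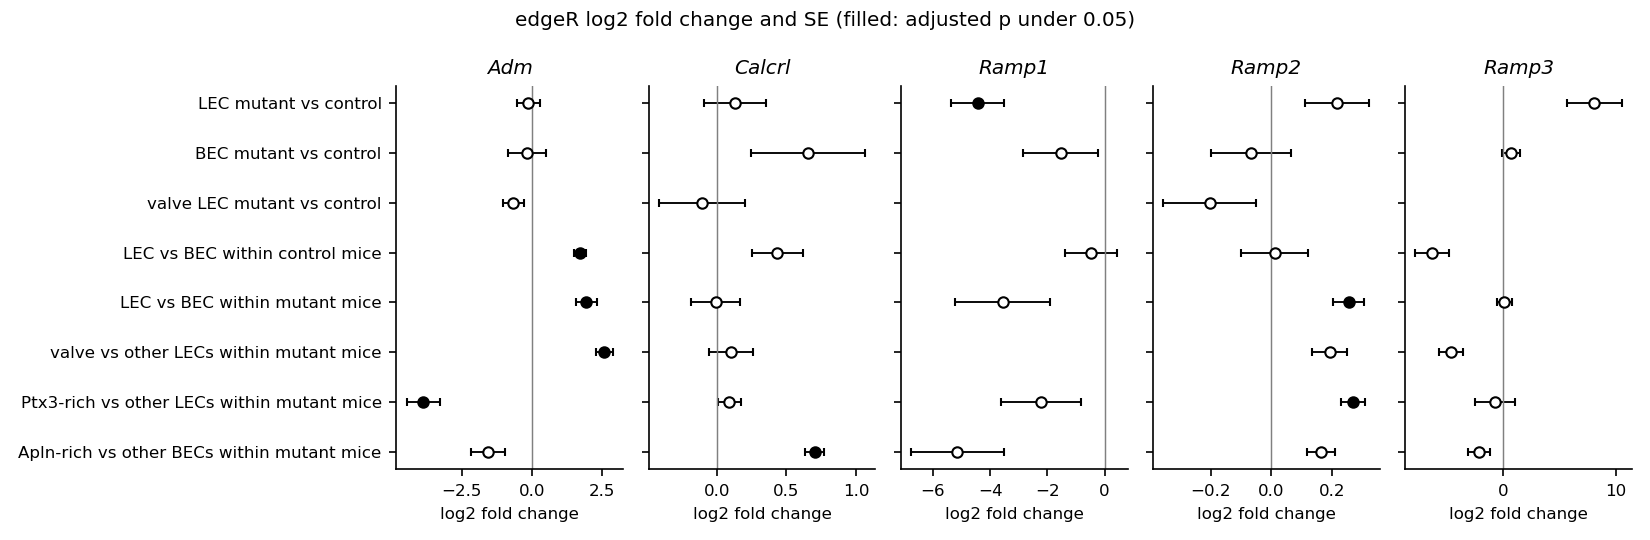
Log2 fold change of the 5 genes (points) with its standard error (bars), for mutant against control mice in LECs, BECs and valve LECs, for LECs against BECs within mice, and for 3 cell subsets against the other cells of their class within mutant mice. Axes differ between genes, and filled points passed an adjusted p under 0.05. For genotype only *Ramp1* in LECs is filled, at -4.44, while *Adm* and *Ramp2* in LECs lie at -0.12 and 0.22.

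The share of cells with a read was compared beside the summed reads. With every cell thinned to 50000 reads, a *Calcrl* read was found in 82.3% ± 3.03 of mutant LECs (SD, n = 5) and in 81.4% and 78.3% of control LECs. In BECs the share was 75.5% ± 8.58 in mutants against 65.6% and 62.2%, and all 5 mutants were above both controls. The exact two-sided permutation test over mice gave p = 0.0952 for that difference, the lowest value that 5 against 2 mice allow, and 0.254 after adjustment over 16 shares. Without thinning the shares were 88.0–95.7% in mutants against 96.9% and 78.0% in controls, so the genotypes overlapped.

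*Ramp2* was found in 98.8–100% of cells in every mouse and class, so nearly every cell with *Calcrl* also held *Ramp2*. The share of LECs with both was 82.2% ± 2.98 in mutants and 80.9% and 78.3% in controls. In BECs it was 75.3% ± 8.31 against 65.0% and 62.2% (exact permutation p = 0.0952, adjusted p = 0.254).

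*Adm* was found in fewer cells and varied more between mice. It was seen in 26.0% ± 11.2 of mutant LECs and in 31.1% and 29.1% of control LECs, and in 16.1% ± 10.5 of mutant BECs against 25.8% and 12.8%. Mutant 1 had the highest share in LECs, at 42.9% (95% Wilson interval 36.0–50.2%). Plates of 1 mouse also varied. Without thinning, a read was found in 52 of 185 and 114 of 178 LECs on the 2 plates of mutant 3. At least 10 reads were found in 22 and 23 of these cells, so the plates differed in cells with few reads.

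*Ramp3* was seen in 2.72%, 0.535%, 2.75%, 1.10% and 23.7% of LECs of mutants 1–5. It was seen in 0 of 183 and 0 of 175 control LECs, where a count of 0 allows up to 1.64% and 1.71% of cells with a read at the thinned depth (counting error only). Without thinning it was in 4 (2.19%) and 1 (0.571%) of these cells. *Ramp1* was in 0.271% ± 0.271 of mutant LECs and in 2.73% and 1.14% of control LECs. No adjusted p of the 16 shares was below 0.254, and none could pass at this number of mice.

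**Figure D3:**
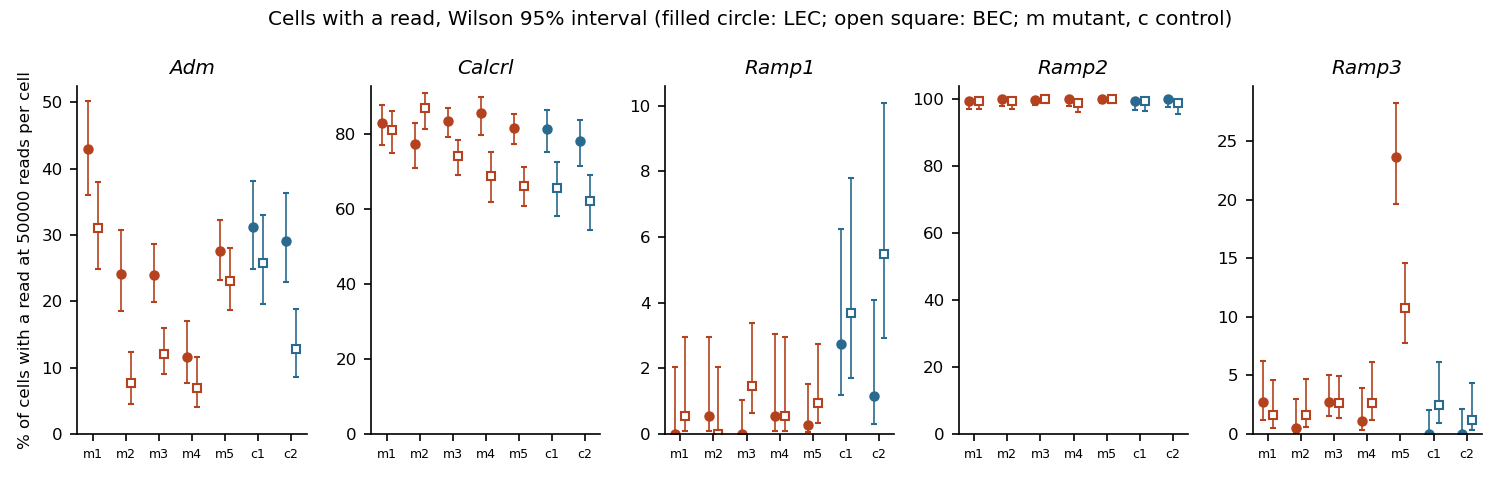
Share of cells with at least 1 read of each gene (percent, after thinning every cell to 50000 reads) in each mutant (m1 to m5) and control (c1, c2), with circles for LECs, squares for BECs and bars for the 95% Wilson interval. Each gene has its own axis. *Calcrl* in BECs is higher in all mutants than in the controls at 65.6% and 62.2%, and *Ramp3* in LECs of mutant 5 is at 23.7%.

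Among the 3 Ramp genes, *Ramp2* made up nearly all of the summed level per exon length. In LECs its share was 99.5%, 99.7%, 97.8%, 99.7% and 90.3% in mutants 1–5 and 99.6% and 99.5% in the controls. Mutant 5 was the exception, with 9.67% of the Ramp level from *Ramp3*. In BECs the *Ramp2* share was 97.2–99.6% in mutants and 98.6% and 98.2% in controls. The differences between genotypes in the *Ramp2* share had exact permutation p-values of 0.762 in LECs and 0.952 in BECs.

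Ramp transcripts exceeded *Calcrl* transcripts in every mouse. Per exon length the summed Ramp level was 5.26- to 10.7-fold that of *Calcrl* in mutant LECs and 5.06- and 7.56-fold in control LECs. In BECs the ratio was 2.68 to 11.6 in mutants and 7.98 and 8.83 in controls, lowest in mutant 2, whose BECs had the most *Calcrl*.

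Within LECs, valve cells held more *Adm* than all other LECs of the same mouse pooled. Their level was 405, 576, 173, 266 and 424 CPM in mutants 1–5, and 561 and 571 CPM in the controls. All other LECs held 79.8, 106, 70.9, 24.3 and 51.2 CPM in the mutants and 63.5 and 74.3 CPM in the controls. Valve cells were higher in every mouse. The LECs that were neither valve, *Ptx3*-rich nor *Lyve1*-rich were at 101, 272, 235, 56.9 and 230 CPM in mutants 1–5 and 98.8 and 130 CPM in the controls, so that in mutant 3 they exceeded the valve cells.

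Within mutant mice *Adm* was higher in valve LECs by 2.58 ± 0.31 on the log2 scale (adjusted p = 0.0210), against a median of -0.19 over all genes tested. It was the only member called, and 0.449% of genes were. The difference was 3.27 ± 0.27 in the 2 control mice (adjusted p = 0.0618), where 0.00635% of genes were called. In all 7 mice it was 2.74 ± 0.25 (adjusted p = 0.0012), where 1.45% of genes were called. Leaving out mutant 1, 2, 4 or 5 took the adjusted p to 0.0976, 0.0697, 0.0789 or 0.109, and the stricter cell rule took it to 0.106, while the difference stayed between 2.34 and 2.88 over the mice left out.

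Valve cells were a small part of the LECs but held a large part of their *Adm* reads. In mutant 1 they were 22.3% of LECs and held 60.0% of *Adm* reads, and in mutant 5 they were 10.9% and held 49.1%. In the controls they were 12.6% and 10.9% of LECs and held 55.7% and 45.1%. The lowest share of reads was 34.7%, in mutant 3, where the LECs of none of the named subsets were 17.4% of cells and held 40.3% of the reads.

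The receptor genes tested were not called between valve and other LECs within mutant mice. *Calcrl* differed by 0.10 (adjusted p = 0.853) and *Ramp2* by 0.19 (adjusted p = 0.205) within mutant mice. *Ramp3* was at 0.0679, 0, 0.279, 0 and 25.0 CPM in valve LECs of mutants 1–5 and at 0 in those of both controls. It differed by -4.64 from other LECs in mutant mice (adjusted p = 0.113). In all mice it was called lower, at -4.80 (adjusted p = 0.0474), where 1.45% of genes were called.

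Between genotypes, no member was called in valve LECs. *Adm* was higher in control 1 than in 4 of 5 mutants, with a log2 fold change of -0.66 ± 0.38 (adjusted p = 0.473). *Calcrl* was at 217, 301, 268, 398 and 319 CPM in mutants 1–5 and at 386 and 236 CPM in controls (log2 -0.10 ± 0.31, adjusted p = 0.923). *Ramp2* was at 1213–1507 CPM in mutants, below 1520 and 1528 CPM in the controls (log2 -0.20 ± 0.15, adjusted p = 0.600). *Ramp1* and *Ramp3* did not pass the filter on low counts, and edgeR called 0 of 13948 genes (0%), with 1760 at an unadjusted p under 0.05, while DESeq2 called 915.

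A second LEC subset, rich in the secreted pattern receptor *Ptx3* (at least 300 CPM and no valve cell; 335 mutant and 35 control cells), was low in *Adm*. The *Ptx3* limit is a cut on a range, since 149 LECs lay within 2-fold above it and 97 within 2-fold below. *Adm* was at 13.7, 9.08, 24.3, 0.711 and 14.6 CPM in *Ptx3*-rich LECs of mutants 1–5, and at 203, 227, 114, 71.8 and 124 CPM in their other LECs. In the controls it was at 77.8 and 60.0 CPM in *Ptx3*-rich LECs and at 128 and 134 CPM in the others.

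*Ptx3*-rich cells were lower than the other LECs in every mouse, and *Adm* was lower by 3.87 ± 0.59 on the log2 scale within mutant mice (adjusted p = 0.0194; 3.07% of genes were called). The other LECs include the valve cells. In the controls, *Ptx3*-rich LECs were above the *Lyve1*-rich LECs, which had 45.4 and 51.8 CPM of *Adm*. Without mutant 1, 2, 3 or 5, and in all mice (log2 -3.03, adjusted p = 0.0703; 1.79% of genes called), the call was lost. The control mouse 1 had only 8 *Ptx3*-rich cells.

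*Ramp2* went the other way, at 1429, 1297, 1324, 1415 and 1572 CPM in *Ptx3*-rich LECs of mutants 1–5 against 1233, 1114, 1122, 1135 and 1388 CPM in the other LECs. It was higher in every mutant, by 0.27 ± 0.04 on the log2 scale (adjusted p = 0.0176), where the median of all genes was -0.09. In control mice it was at 1092 and 1251 CPM against 1068 and 1153 CPM, and over all mice it was higher by 0.24 (adjusted p = 0.0227). The mutant call was lost without mutant 1, 3, 4 or 5 and without the mouse as a block (adjusted p = 0.0926). *Calcrl* differed by 0.09 between the same cells and was not called.

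In BECs, the subset rich in the angiogenic peptide gene *Apln* (at least 300 CPM; 498 mutant and 36 control cells), a marker of sprouting endothelium, had more *Calcrl*. The level was 305, 651, 351, 387 and 201 CPM in *Apln*-rich BECs of mutants 1–5 and 186, 384, 215, 234 and 138 CPM in their other BECs. Controls had 271 and 248 CPM against 202 and 190 CPM. The *Apln*-rich cells were higher than the other BECs pooled in every mouse. In mutant 3 and control 2, BECs rich in the venous gene *Ackr1* held more than the *Apln*-rich cells, at 325 against 248 CPM in control 2.

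Within mutant mice *Calcrl* was higher in *Apln*-rich BECs by 0.70 ± 0.07 on the log2 scale (adjusted p = 0.00359; 4.34% of genes were called). It was called in 12 of 13 alternative settings, the exception being the fit without the mouse as a block (adjusted p = 0.329), and was 0.70 in all mice (adjusted p = 0.0061; 1.67% of genes called). Mural markers moved with this contrast, with 3 of 4 called lower in *Apln*-rich cells and a list median of -3.87, as did keratinocyte markers, with 1 of 4 called lower and a median of -2.24. Without cells holding such markers *Calcrl* was higher by 0.60 ± 0.07 (adjusted p = 0.00764). *Ramp2* differed by 0.16 (adjusted p = 0.109). *Adm* was at 4.75, 10.9, 21.5, 3.99 and 39.2 CPM in *Apln*-rich BECs of the mutants and at 5.76 and 93.4 CPM in those of the controls, and differed from other BECs by -1.56 ± 0.60 in mutants (adjusted p = 0.228). Of the *Apln*-rich BECs, 86 lay within 2-fold above the limit, and 38 other BECs within 2-fold below it.

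**Figure D4:**
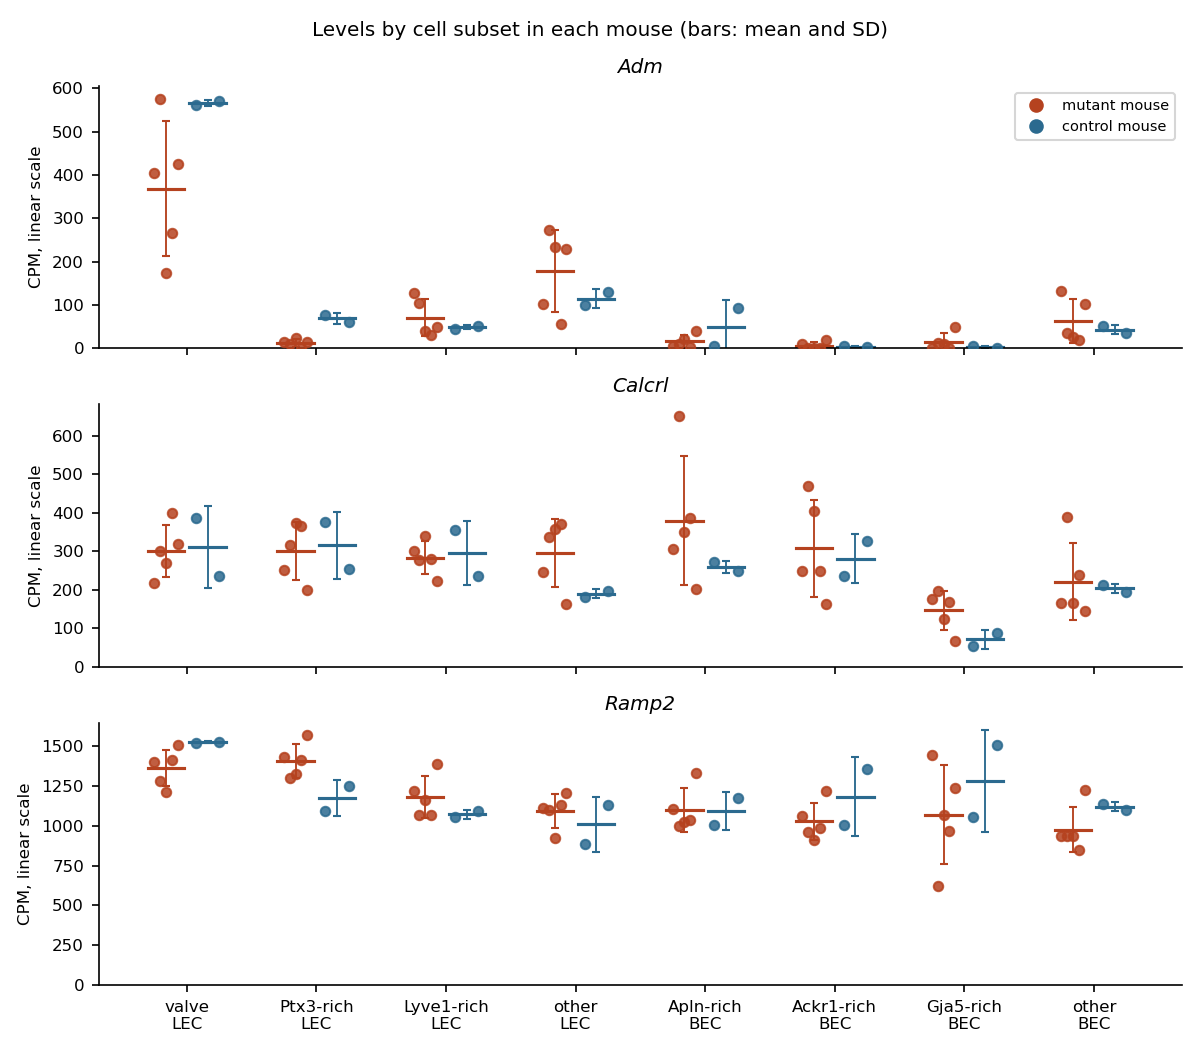
Level of *Adm*, *Calcrl* and *Ramp2* in CPM (linear axes) in 4 LEC and 4 BEC subsets, with 1 point per mouse and bars for the group mean and SD, cut at 0. *Adm* in valve LECs is at 173–576 CPM in mutants, above the other subsets in every mouse but mutant 3, and *Calcrl* has its lowest mutant mean in *Gja5*-rich BECs, at 146 CPM.

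The arterial and venous BEC subsets completed the pattern, without a test. BECs rich in the arterial gene *Gja5* (59 mutant, 26 control cells) had the lowest mean *Calcrl*, at 66.1–196 CPM in mutants and 54.0 and 87.3 CPM in controls, although in mutant 1 they were at 176 CPM (6 cells) against 165 CPM in the BECs of no named subset. BECs rich in the venous gene *Ackr1* (141 mutant, 28 control cells) had *Calcrl* at 162–470 CPM in mutants and 236 and 325 CPM in controls. *Adm* was at 0.320–18.8 CPM in mutants and 4.43 and 2.45 CPM in controls in the venous subset, and at 0.591–48.8 CPM in mutants and 5.06 and 0.660 CPM in controls in the arterial subset.

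Of the other receptor genes, 3 of 4 were tested in LECs between genotypes and none was called, with a list median of 0.10.

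In the cAMP pathway 24 of 27 genes were tested in LECs, and 1 rose and none fell, with a list median of 0.04, beside 2.76% called over all genes. The gene was *Prkar2b*, a regulatory subunit of protein kinase A (log2 1.98 ± 0.32, adjusted p = 0.0217), at 18.6 ± 3.07 CPM in mutants (SD, n = 5) against 4.54 and 5.15 CPM in controls. It was 2.12 with plate series as a block (adjusted p = 0.0985) and 1.78 without cells of other types (adjusted p = 0.0430), and without cycling cells it was 1.96 (adjusted p = 0.0544). In BECs none of 24 cAMP genes or 3 other receptors was called. Of the 4 junction genes none was called in LECs and 1 in BECs, beside 2.76% and 1.86% over all genes. The call was *Gja1*, a gap junction gene that fell in BECs by 1.23 ± 0.15 (log2, adjusted p = 0.00978), from 336–361 CPM in controls to 116–165 CPM in mutants. Its log2 change was -1.18 without cells of other types (adjusted p = 0.0194) and -1.04 with plate series as a block (adjusted p = 0.201).

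*Adm* is a known target of hypoxia-inducible factors, so a list of 14 hypoxia-responsive genes was read beside it. In LECs 2 rose and none fell, beside 2.76% of genes called, with a list median of 0.66 against -0.01 for all genes. They were *Hif1a* itself (1.19 ± 0.20, adjusted p = 0.0263) and the glycolytic gene *Pgk1* (0.91 ± 0.19, adjusted p = 0.0449). With plate series as a block *Hif1a* was 1.21 (adjusted p = 0.147) and *Pgk1* 1.27 (adjusted p = 0.0403), and without cells of other types *Pgk1* was 0.79 (adjusted p = 0.0694). Without cycling cells neither was called, at 1.12 for *Hif1a* (adjusted p = 0.0556) and 0.73 for *Pgk1* (adjusted p = 0.114).

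In BECs 3 hypoxia-responsive genes rose, beside 1.86% of genes called, with a list median of 0.73 against 0.01 for all genes. They were *Pgk1* (1.34 ± 0.19, adjusted p = 0.0173), *Ldha* (0.89 ± 0.14, adjusted p = 0.0229) and *Hif1a* (1.02 ± 0.20, adjusted p = 0.0487). All 3 were called without cells of other types, and with plate series as a block their adjusted p was 0.0724, 0.0823 and 0.399. The corresponding values of *Adm* were -0.12 in LECs and -0.18 in BECs, neither called, and in BECs 0.69 with plate series as a block (adjusted p = 0.881).

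The lists were also read between the endothelial classes, in fits paired within mice. Within mutant mice 21.3% of all genes were called between LECs and BECs, and 2 of the 5 members, *Adm* and *Ramp2*, both higher in LECs. Within control mice 4.21% were called, and *Adm* alone among the members. In all 7 mice *Adm* (1.89, adjusted p = 0.0014) and *Ramp2* (0.21, adjusted p = 0.0350) were called, beside 22.1% of all genes. Markers of other cell types moved with the contrast in mutants. Of 4 mural markers 1 was called lower in LECs (list median -1.39), and of 4 keratinocyte markers 2 (median -1.02). Of 4 fibroblast markers 1 was called higher (median -0.28). The list values below include such cells, and their part in them was not tested.

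Of the peptide and processing genes, 3 of 6 were higher and 2 lower in mutant LECs than in BECs. The related peptide gene *Adm2* was at 0–1.87 CPM in mutant LECs and at no more than 0.0103 CPM in mutant BECs. The amidating enzyme *Pam*, which completes adrenomedullin, was lower in LECs (-1.02 ± 0.08, adjusted p = 0.000257), as was the peptidase *Mme* (-7.23 ± 0.43, adjusted p = 9.03e-05), at no more than 0.0833 CPM in mutant LECs against 4.46–15.5 CPM in mutant BECs. The peptidases *Ece1* (0.68) and *Ide* (0.60) were higher.

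Among other receptors, 2 of 4 were higher in LECs and none lower. These were the scavenging receptor *Ackr3* (1.67 ± 0.17, adjusted p = 0.000682), which takes up adrenomedullin, and *Gpr182* (1.09 ± 0.09, adjusted p = 0.000364), a related scavenging receptor. *Ackr3* was at 356–705 CPM in mutant LECs and 159–176 CPM in mutant BECs.

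Of 25 cAMP pathway genes, 7 were higher and 4 lower in LECs. The exchange factors activated by cAMP, *Rapgef3* (-2.64 ± 0.20, adjusted p = 0.000201) and *Rapgef4* (-5.66 ± 0.74, adjusted p = 0.00214), were lower, as were the phosphodiesterase *Pde4a* (-5.44) and the adenylyl cyclase *Adcy4* (-0.99). The protein kinase A subunit *Prkar1a* was higher (0.44 ± 0.06). Of the junction genes, *Cldn5* (1.31) and *Gja1* (0.76) were higher and *Cdh5* (-1.29) and *Tjp1* (-0.85) lower, and of 14 hypoxia-responsive genes 1 was higher and 6 lower.

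The genes whose levels ran most like each member were taken over 14 sums (LECs and BECs of 7 mice, centred within each class, 10243 genes), as a description, since the sums share mice and plates. They were *Rack1* for *Adm* (Pearson's r = 0.930), *Raver1* for *Calcrl* (0.926), *Cd40* for *Ramp2* (0.923) and *Anxa3* for *Ramp3* (0.931). For *Ramp1* they were *U2af1l4* (0.893) and *Fxyd3* (0.890), followed by the keratinocyte genes *Dmkn*, *Sfn* and *Ly6d*.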

How the data were processed

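Single endothelial cells of mouse ear skin had been sequenced with Smart-Seq2, and per the deposited files the values are raw read counts per gene and well, with no filter. Per the labels and methods, the authors aligned reads with TopHat2 2.1.1 to GRCm38 and counted them with featureCounts after duplicate removal (SAMtools 0.1.18), and the annotation version and strand setting are not given in the sources used here. The transgene was not analysed here. Other deposited columns hold summed exon lengths in bases. Symbols and coordinates were taken from GENCODE vM21, in which 98.9% of 46517 Ensembl IDs were found.

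Wells with at least 200 genes, at least 50000 reads outside spike-ins and at most 10% mitochondrial reads were kept, with genes in at least 3 cells. No doublet caller was run, and no wells were identical (0). Cells with at least 300 CPM of another cell type's marker list (179 LECs, 281 BECs) were left out in an alternative. Reads were summed per mouse and class (at least 5 cells), giving 55614594–194349752 reads per LEC sum and 39609683–102711674 per BEC sum. Median reads per cell were 348666 in mutant and 303194.5 in control LECs.

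The sums were tested with the quasi-likelihood F test of edgeR 4.0.16 in R 4.3.3, after filterByExpr and TMM, with mouse as a block within mice. Genes with an adjusted p under 0.05 were called. Standard errors follow ±. Shares of cells were taken after thinning to 50000 reads and compared over the 21 splits of 7 mice by exact permutation (Python 3.11.15, scipy 1.17.1). Without molecular identifiers, intervals and floors cover counting error only. Plate series means plates with numbers beginning with 3 against those with numbers beginning with 8 or 9. The numbers of mutants and controls were not taken as pairs. Deviations of same-numbered mice correlated at -0.03 and -0.04 in LECs and at 0.01 and 0.07 in BECs. The deviations of the control mice mirror each other, so these values cannot show or exclude a pairing.

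Alternatives were DESeq2 1.42.0, its size factors in edgeR, no count filter, thinned cells, a stricter cell rule (marker sums 4-fold apart), each mouse left out, a replicate block, 1 plate series, plate series as a block, and no cycling cells (at least 3 of 7 cycle genes). Fits without cells of other types, in all mice and in control mice were chosen after seeing the data. Members and lists were chosen with earlier results of these data known. Named beside the members are the called genes of each list, at most 5 per list and comparison by adjusted p, and the 5 genes most like each member. 1 gene of the lists is not reported here. The scripts were tested on simulated data.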

Additional observations from a re-analysis of the deposited data

Results flagged for a closer look

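In groups of 4 to 10 mice, a sample was marked when its gap to the nearest other value took most of the group's range (Dixon's test at 95%). Of 50 groups, 10 held such a sample. Chance alone marks about 1 in 20 independent groups of normally distributed values. The groups here share mice, cells and reads, so their number cannot be set against that rate. Of the 10 marked, 7 were *Ramp3* in mutant 5. Its *Ramp3* level was 64.6 CPM in LECs, 25.0 CPM in valve LECs and 84.7 CPM in *Ptx3*-rich LECs. In valve LECs, 461 of the 507 reads lay in 1 cell, which also held 899 CPM of fibroblast markers. Its share of cells with a *Ramp3* read after thinning was 23.7% in LECs, 10.7% in BECs, 20.0% in valve LECs and 28.7% in *Ptx3*-rich LECs. Both plates of mutant 5 were high in LECs, at 73.4 and 56.6 CPM.

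*Ramp2* in BECs of mutant 5 was at 1273 CPM, above the other mutants. *Ramp1* in valve LECs of mutant 2 was at 3.80 CPM and was found in 3.70% of these cells after thinning, from 29 reads.

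In the cells of neither class, which entered no comparison, *Ramp3* was at 0.747 CPM in mutant 3 (10 cells, 2 reads) and at 102 CPM in mutant 5 (8 cells), above 0.163 and 0 CPM in the controls (17 and 22 cells). The other mutants had fewer than 5 such cells each.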

How the results depend on the processing

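Of 565 values of single members under alternative settings, 476 kept their direction and their side of the threshold, 41 changed sign, 35 lost a call and 13 gained one; the cause was not tested except where fewer mice or cells entered. DESeq2 called more genes than edgeR: 2490 in LECs, 2170 in BECs, 915 in valve LECs, 1163 for the LEC minus the BEC effect, 3003 between LECs and BECs in controls, and 1657, 2263 and 2545 for valve LECs, *Ptx3*-rich LECs and *Apln*-rich BECs. Leaving out 1 mouse gave 153–546 genes in LECs, 127–534 in BECs, 0–20 for the difference of effects, 8–29 for valve LECs, 76–314 for *Ptx3*-rich LECs and 362–547 for *Apln*-rich BECs. The numbers of genes fell to 3 in LECs and 0 in BECs (1129 at an unadjusted p under 0.05 in edgeR) on the control plate series, to 162 and 37 with plate series as a block, and to 97 in LECs without cycling cells.

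The replicate block, which pairs mice that share only a number, left 0 genes in LECs and 0 in BECs in edgeR (1948 and 2630 at an unadjusted p under 0.05), and moved *Adm* in LECs to 0.41 and *Ramp3* in BECs to -0.87. The check of same-numbered mice cannot decide on this pairing, as the deviations of the control mice mirror each other. The paper describes control 1 as separately bred. Without the replicate block of the mouse, within mutant mice, 249 genes were called for valve LECs and *Ramp3* was 0.48 for *Ptx3*-rich LECs.

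Other counts that moved were 557 in BECs and 89 for the difference of effects without cells of other types, 1 in valve LECs and 5 for valve against other LECs under the stricter cell rule, 1462, 125 and 949 with thinned cells for LECs against BECs in controls, valve and *Ptx3*-rich LECs, and, in all mice, 281, 358 and 331 for valve, *Ptx3*-rich and *Apln*-rich cells (1 for valve LECs in control mice).

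Signs changed as follows (log2). *Adm* became 0.032 in LECs without cycling cells, and in BECs 0.19 without cells of other types, 0.68 on the control plate series and 0.69 with plate series as a block. *Calcrl* became -0.26 and -0.25 in LECs and -0.25 and -0.25 in BECs, and *Ramp2* 0.20 and 0.20 in BECs, on the control plate series and with plate series as a block. *Calcrl* in valve LECs became 0.15 thinned and 0.018 without cells of other types, where the difference of effects became 2.12 for *Ramp1* and -0.38 for *Adm*. Between LECs and BECs of controls, *Ramp2* became -0.016 with DESeq2, -0.016 with its size factors, -0.081 thinned, -0.039 under the stricter rule and -0.16 without cells of other types, and *Ramp1* 1.395 under the stricter rule. In mutants, *Calcrl* became 0.010 without the count filter and 0.14 in all mice, and *Ramp3* -0.18 thinned, -0.60 under the stricter rule and -1.24 in all mice. *Ramp3* in *Ptx3*-rich LECs became 0.17 thinned.

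Leaving out 1 mouse gave ranges across 0 for *Adm* in BECs (-0.51 to 0.060), in LECs (-0.34 to 0.061) and for the difference of effects (-0.042 to 0.59). It did so for *Calcrl* in LECs (-0.11 to 0.45), between LECs and BECs of mutants (-0.11 to 0.20), in valve LECs (-0.45 to 0.38) and between valve and other LECs (-0.038 to 0.21), and for *Ramp3* between LECs and BECs of mutants (-0.49 to 0.63) and in *Ptx3*-rich LECs (-2.15 to 0.28). Differences of shares in percentage points did so for *Calcrl* with *Ramp1* in LECs (-0.822 to 0.271), *Adm* in BECs (-9.63 to 3.33), *Ramp2* in LECs (-0.164 to 0.383) and the *Ramp2* share of the Ramp level in BECs (-0.304 to 0.280; 0.200 thinned). Unthinned, the share of LECs with *Calcrl*, and with *Calcrl* and *Ramp2*, differed by -0.509. Control LECs held 7 *Ramp3* reads, and a share test of 5 against 2 mice cannot go below 0.0952.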
